A study of Mus musculus with 6 samples.

Results

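The 32 genes described here are interferon response genes, transcripts that cells make after an interferon or a sensed viral nucleic acid has signalled. They were taken as a fixed list of mouse symbols, and each symbol matched 1 of the 52636 genes counted. The counts came from single-cell RNA sequencing of 25428 cells of choroid and retinal pigment epithelium (RPE), the vascular layer behind the retina and the pigmented layer between them, which the study dissociated and kept in culture. All 6 samples were from male C57BL/6J mice aged 12-16 months. The 3 Dram2 wt/wt samples, called wild-type here, carried no altered allele. The 3 Dram2 ko/ko samples, called knockout here, carried a constitutive CRISPR/Cas9 deletion in Dram2, a gene for a lysosomal membrane protein, in every cell. The labels placed knockout replicate 3 alone in batch 2 and the other 5 samples in batch 1. They do not say whether a sample was 1 animal or a pool, so p-values measure the spread between these samples, part of which may be technical.

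The counts are of unique molecular identifiers (UMIs), each of which stands for 1 captured RNA molecule. Samples held 2140 to 6648 cells and 96808998 to 122746184 UMIs, with a median of 16453 to 47373 UMIs per cell. Levels are given as CPM, the usual scaling of UMI counts by the total of the sample or cells concerned. Each molecule is counted once from its 3′ end, whatever its length, so levels of different genes are set side by side without scaling by length. Members that share sequence at that end with other genes have less certain counts and are named below. Dram2 itself was at 33.4, 39.6 and 38.1 CPM in the wild-type samples and at 30.7, 28.3 and 30.1 CPM in the knockout samples. The 3′ counts lie outside the deleted part of the gene, so they do not check the genotype labels.

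Interferons are secreted proteins that warn cells of infection. Type I interferons bind the receptor Ifnar1 and Ifnar2, whose kinases activate STAT proteins, among them STAT2. STAT2 joins IRF9 in a complex that binds a short DNA element, the interferon-stimulated response element, beside the genes they switch on. Interferon gamma acts through Ifngr1 and Ifngr2, at another element called GAS. Some response genes also have a basal level without infection, and single cells of a culture can differ widely in whether they respond. In the eye, the choroid is reached by circulating immune cells, and RPE cells are known to respond to interferons in culture.

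The element that these factors bind was looked for in the promoters of the members. RefSeq promoters of GRCm38.p6, from 250 bases before to 50 bases after the start site, were at hand for 24 of the 32 members. They were searched on both strands for GAAANNGAAA (TTTCNNTTTC on the other strand), the repeated core of the interferon-stimulated response element, with overlapping matches counted. A gene with more than 1 promoter was counted if any of them matched. Of these 24 members, 16 (66.7%) had a promoter with a match, against 1079 of the 27025 genes with a promoter (3.99%). At least 2 matches in the same promoter were present for 9 of the 24 (37.5%) and for 72 of all these genes (0.266%). The palindrome TTCNNNGAA, the core of GAS, was found in 5 members (20.8%), Ifit2, Oas1a, Bst2, Igtp and Ifi35. It was found in 9.55% of all genes with a promoter. A match describes letters in a window, not a site in use. The stretches below belong to members that the following results turn on, 5′ to 3′ on the strand of the gene, with the matches to the response element in capitals.
Isg15, chr4:156200860-156200911, minus strand: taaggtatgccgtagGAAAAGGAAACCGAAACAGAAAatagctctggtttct
Ifit1, chr19:34640770-34640828, plus strand: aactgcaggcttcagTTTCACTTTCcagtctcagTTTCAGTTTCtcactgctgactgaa
Ifit3, chr19:34583358-34583431, plus strand: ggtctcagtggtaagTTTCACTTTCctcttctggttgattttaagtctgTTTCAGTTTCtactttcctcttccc
Ifit3b, chr19:34607754-34607827, plus strand: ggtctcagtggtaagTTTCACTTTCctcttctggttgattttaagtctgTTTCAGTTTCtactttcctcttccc
Rsad2, chr12:26456548-26456587, minus strand: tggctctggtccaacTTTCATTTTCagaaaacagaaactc
Bst2, chr8:71537572-71537617, minus strand: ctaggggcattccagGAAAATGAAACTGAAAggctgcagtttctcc
Igtp, chr11:58199507-58199546, plus strand: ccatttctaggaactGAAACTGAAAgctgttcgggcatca

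Isg15 held 3 overlapping matches in 1 run, whereas Ifit1 held 2 that were apart. Ifit3 and Ifit3b, neighbours on chromosome 19, had the same letters over the whole stretch shown. Rsad2 and Igtp had 1 match each. Promoters of Ifi27, Usp18, Iigp1, Mx1, Parp14, Rtp4, Dhx58 and Zbp1 were not analysed here.

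Summed over the 32 members, the level was 529, 630 and 710 CPM in the wild-type samples and 523, 551 and 733 CPM in the knockout samples. The means were 623 ± 90.6 CPM and 602 ± 114 CPM (SD, n = 3 each). The genotypes overlapped, and the highest sample of each was replicate 3. With knockout replicate 3 left out, so that all samples were of batch 1, the difference of the means was -86.3 CPM, against -20.7 CPM with all samples.

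The members were not equally abundant. Ifi27, a small hydrophobic protein of mitochondrial and nuclear membranes, held the most UMIs, with 240, 226 and 245 CPM in the wild-type samples and 209, 256 and 259 CPM in the knockout samples. It was detected in 87.9% of cells. Without it the sum of the list was 289 to 474 CPM. The group of 6 other induced genes to which it belongs (with Ifi35, Xaf1, Rtp4, Parp14 and Ifi44) gave 48.1% of all member UMIs. The 9 antiviral effectors gave 22.9%, most of it from Bst2, a membrane protein that tethers budding virus particles to the cell. The 6 sensors of viral nucleic acid and their partners gave 8.69%, the 5 interferon-induced GTPases 8.22%, the ubiquitin-like modifier Isg15 with its protease Usp18 6.84%, the 3 transcription factors 4.39%, and the chemokine Cxcl10 0.876%.

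**Figure D1:**
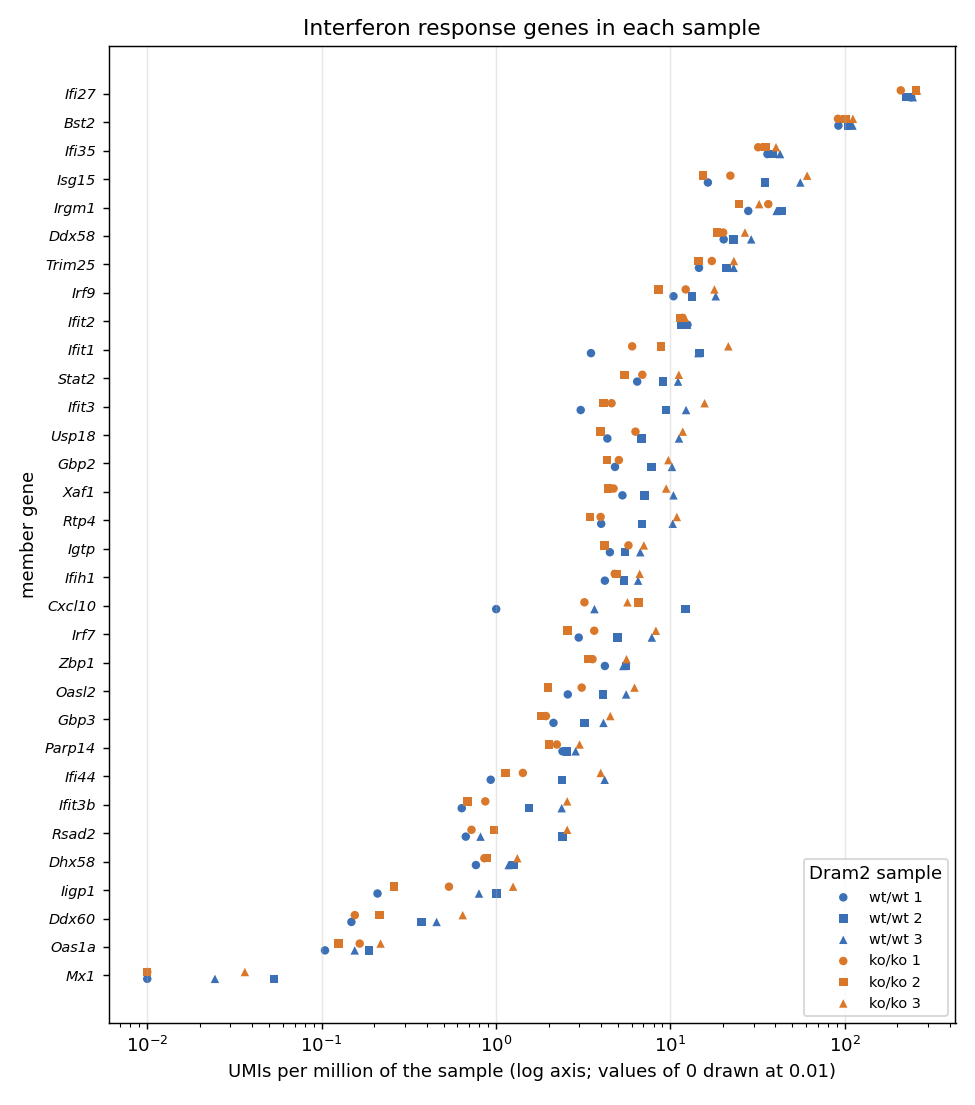
Level of each of the 32 members in each of the 6 samples, in CPM of the sample on a log axis, with wild-type (wt/wt) samples in blue, knockout (ko/ko) samples in orange and the replicate given by the shape. Blue and orange points overlap for every member, and levels run from Ifi27 at 209 to 259 CPM down to Mx1 at 0 to 0.0533 CPM.

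Bst2 was the second highest member, at 91.9, 104 and 111 CPM in the wild-type samples and 91.3, 101 and 111 CPM in the knockout samples. Ifi35, a leucine zipper protein, was at 36.0, 38.5 and 42.5 CPM against 31.8, 35.2 and 40.3 CPM. These levels differed little between samples of either genotype. Isg15, a ubiquitin-like protein that is attached to other proteins, had a similar mean level to Ifi35 and a far wider spread. Its values were 16.4, 34.9 and 55.5 CPM in the wild-type samples and 22.1, 15.4 and 60.8 CPM in the knockout samples. Both replicates numbered 3 lay above the other 4 samples. Irgm1, a GTPase that acts on vacuoles of intracellular microbes, was at 27.9, 43.3 and 40.6 CPM against 36.4, 24.7 and 32.3 CPM. Ddx58, which encodes the RNA sensor RIG-I, was at 20.2, 23 and 29.1 CPM against 20.1, 18.5 and 26.7 CPM.

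Among the transcription factors of the response, Irf9 was at 8.53 to 18.2 CPM over the 6 samples, Stat2 at 5.45 to 11.2 CPM, and Irf7, which amplifies interferon production, at 2.56 to 8.26 CPM. Among the sensors, Trim25, the ubiquitin ligase of RIG-I, was at 14.5 to 23.1 CPM. Ifih1, which encodes the RNA sensor MDA5, was at 4.21 to 6.66 CPM. Zbp1, a sensor of Z-form nucleic acid, was at 4.21, 5.55 and 5.37 CPM in the wild-type samples and 3.57, 3.40 and 5.60 CPM in the knockout samples. The other sensors, Dhx58 and Ddx60, stayed at or under 1.32 CPM. Of the antiviral effectors, Ifit2 was even across samples, at 11.4 to 12.5 CPM, whereas Ifit1, whose protein binds foreign RNA ends, had 3.50 CPM in its lowest sample and 21.5 CPM in its highest. Mx1, a dynamin-like GTPase that blocks influenza virus and is defective in this mouse strain, had 13 UMIs in 10 cells of all samples.

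In 21 of the 32 members (65.6%), wild-type replicate 3 and knockout replicate 3 were the 2 highest samples. Over all 22580 genes tested this held for 1005 (4.45%). The 9 myeloid markers (Lyz2, Ptprc, Cd68 and others) were summed in the same samples. They were at 50.8, 73.0 and 83.1 CPM in the wild-type samples and at 54.9, 44.0 and 107 CPM in the knockout samples, so that these same samples were the highest for them too. Their part in the members' levels was not tested. These 2 samples were of different batches and genotypes.

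Whether loss of Dram2 changed the members was asked with UMIs summed per sample and fitted over all genes with voom-limma. Of the 32 members, 31 passed the filter on low counts (all but Mx1), and none was called at an adjusted p under 0.05. None had an unadjusted p under 0.05, and edgeR and DESeq2 called 0 members as well. Over all 22580 genes limma called 0.0% (0 genes, with 1583 at an unadjusted p under 0.05), edgeR called 0 and DESeq2 called 378. No member had genotypes that did not overlap, against 11.5% of all genes tested. Of the 31 members, 8 were higher in knockout, and the median log2 fold change (knockout over wild-type) was -0.11, against 0.00 over all genes.

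The members at the ends of that order had wide errors. Xaf1, a protein linked to cell death, was at 5.31, 7.11 and 10.4 CPM in the wild-type samples and 4.72, 4.38 and 9.45 CPM in the knockout samples, a log2 fold change of -0.32 (SE 0.32, limma adjusted p = 0.922). Rtp4, a receptor transporter protein, was at 4.01, 6.85 and 10.3 CPM against 3.98, 3.47 and 10.9 CPM, a log2 fold change of -0.28 (SE 0.46, limma adjusted p = 0.939). For Zbp1 it was -0.27 (SE 0.20, limma adjusted p = 0.92). At the other end, Cxcl10, which draws T cells and natural killer cells, was at 1.00, 12.2 and 3.67 CPM against 3.21, 6.57 and 5.67 CPM. Its log2 fold change was 0.50 (SE 0.74, limma adjusted p = 0.933), although the mean was higher in wild-type (5.62 ± 5.84 CPM against 5.15 ± 1.74 CPM). Ifit1, at 3.50, 14.6 and 14.5 CPM against 6.03, 8.80 and 21.5 CPM, had a log2 fold change of 0.23 (SE 0.61, limma adjusted p = 0.969). Oas1a, which makes the RNA-cutting signal of the 2-5A pathway, stayed between 0.105 and 0.218 CPM, with a log2 fold change of 0.21 (SE 0.33, limma adjusted p = 0.939). In each of these 6 members the samples of the genotypes overlapped.

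The same question was asked within each cell type of the authors' annotation. Limma called no member in any type, and neither edgeR nor DESeq2 did. Of all genes, DESeq2 called 320 of 19886 in Fibroblast, 320 of 18113 in Fibroblast proliferating and 168 of 14882 in Fibroblast 2. EdgeR called 1, 62 and 11 there. In the other types DESeq2 called 8 to 23 genes and edgeR 0 to 10. With shares this low, the absence of called members says little about the members. The members that passed the filter were 31 in Fibroblast cells, 29 in Fibroblast proliferating, 27 in Fibroblast 2, 19 in RPE, 11 in Pericyte, 8 in Myeloid, 7 in Endothelial and 5 in Fibroblast-like cells. At an unadjusted p under 0.05 there were 3, namely Cxcl10 in RPE cells, Ddx58 in Endothelial cells and Isg15 in Myeloid cells, all named after their values were seen. Of all genes, 573 of 12333 in RPE, 350 of 6682 in Endothelial and 401 of 6747 in Myeloid cells were at such a p. Of all genes tested, limma called 0.00503% in Fibroblast cells, 0.624% in Fibroblast proliferating, 0.222% in Fibroblast 2, 0.0118% in Pericyte and 0.0296% in Myeloid cells, and 0.0% in RPE, Fibroblast-like and Endothelial cells.

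Members whose genotypes did not overlap were 1 of 27 in Fibroblast 2, 2 of 7 in Endothelial cells and 2 of 8 in Myeloid cells, and 0 in each other type. Over all genes tested the share was 11.4% in Fibroblast 2, 10.5% in Endothelial and 33.7% in Myeloid cells, where 2 samples stood against 2. It was 11.6% in Fibroblast, 11.3% in Fibroblast proliferating, 7.57% in RPE, 8.4% in Fibroblast-like and 10.7% in Pericyte cells. These 5 cases are named after their values were seen, and none passed the adjusted test. In Endothelial cells Ddx58 was at 31.6, 39.7 and 43.3 CPM in the wild-type samples and 21.6, 21.5 and 11.3 CPM in the knockout samples, on 5 to 36 UMIs per sample (log2 fold change -0.99, SE 0.39, limma adjusted p = 0.92). Bst2 there was at 182, 163 and 145 CPM against 211, 202 and 203 CPM (0.36, SE 0.17, limma adjusted p = 0.942). These 2 genes thus lay on opposite sides in the same cells. In Fibroblast 2 Parp14 was at 5.27, 6.68 and 5.93 CPM against 5.22, 3.67 and 5.22 CPM, and in Myeloid cells Irf9 was at 28.7 and 29.6 CPM against 11.3 and 20.03 CPM.

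Isg15 in Myeloid cells is given because settings disagreed on it, and it was chosen after its values were seen. Only 4 samples had the minimum of 10 Myeloid cells. The 2 wild-type samples, replicates 2 and 3, were at 67.6 and 249 CPM, and the knockout samples of the same numbers were at 39.7 and 10.0 CPM. These values rested on 40, 101, 7 and 5 UMIs in that order. The log2 fold change was -3.20 (SE 0.85, limma adjusted p = 0.329). Without the filter on low counts it was called with limma, at -2.89 and adjusted p = 1.32e-05. With either wild-type sample left out it was also called, at -4.32 and -2.39, and with either knockout sample left out it was not. Those fits rest on 1 sample of a genotype, assumed to vary like the other genotype. Over all alternatives its adjusted p ran from 3.68e-13 (limma, without wild-type replicate 2) to 0.9998 (DESeq2).

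Cell types differed in how much of the list they held. These are descriptions without a test, since the types are clusters of the same cells' expression. Pooled over samples, the summed level was 1021 CPM in Fibroblast 2, 978 CPM in Myeloid, 780 CPM in Pericyte, 775 CPM in Endothelial, 651 CPM in Fibroblast, 433 CPM in Fibroblast proliferating, 425 CPM in Fibroblast-like and 413 CPM in RPE cells. The ranges over samples were 860 to 1347 CPM in Fibroblast 2, 866 to 1812 CPM in Myeloid (4 samples), 554 to 1335 CPM in Pericyte, 667 to 967 CPM in Endothelial, 514 to 846 CPM in Fibroblast, 349 to 503 CPM in Fibroblast proliferating, 358 to 507 CPM in Fibroblast-like and 298 to 486 CPM in RPE cells. Each type overlapped with its neighbours in this order, except Fibroblast with Fibroblast proliferating. The first and last places depended on the measure and on single libraries, so no order is drawn between Fibroblast 2 and Myeloid or between RPE and Fibroblast-like cells. Without Ifi27 the pooled level was 732 CPM in Myeloid and 644 CPM in Fibroblast 2, and it was 294 CPM in RPE and 163 CPM in Fibroblast-like cells. As a mean over samples, with Ifi27, it was 1120 CPM in Myeloid and 1081 CPM in Fibroblast 2. Each sample was also left out in turn, an alternative chosen after seeing the data. The pooled level was higher in Myeloid than in Fibroblast 2 without wild-type replicate 1 (1090 against 1055 CPM), without wild-type replicate 2 (1020 against 1008 CPM) and without knockout replicate 3 (1009 against 972 CPM). It was lower in Myeloid without wild-type replicate 3 (789 against 985 CPM), as it also was without Ifi27 in that case (560 against 610 CPM), and it stayed lower without knockout replicate 1 or 2. With Ifi27 counted, the lowest Fibroblast 2 sample lay above the highest Fibroblast sample, and the lowest Fibroblast sample lay above the highest of the 3 lowest types. Without Ifi27 neither separation held. Fibroblast 2 then started at 480 CPM and Fibroblast reached 549 CPM. The lowest Fibroblast sample was at 280 CPM, while RPE reached 395 CPM and Fibroblast proliferating 337 CPM.

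The annotation was checked against markers. RPE cells held the most of 7 of 10 RPE markers, though Rpe65, the visual cycle isomerase of mature RPE, had 20 UMIs in all cells. The 7 fibroblast markers summed to 5155 CPM in Fibroblast, 5707 CPM in Fibroblast proliferating, 3870 CPM in Fibroblast 2 and 2493 CPM in Fibroblast-like cells, and were highest in Pericyte cells at 5748 CPM, where 2 of the 7 had their highest level. All 5 endothelial and all 9 myeloid markers were highest in the type of that name. The cells annotated Pericyte held the most of only 1 of 7 pericyte markers, although the sum of the 7 was highest there, at 245 CPM against 208 CPM in Fibroblast cells. All 5 Schwann cell markers, such as Sox10, were highest there. Their sum was 1164 CPM, against 7.09 CPM in Fibroblast 2, the next type. The markers thus went with Schwann-like cells more than with the Pericyte name, which is kept here only as the label of the annotation.

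The genes behind these sums differed by type. Of the 32 members, 11 were highest in Myeloid cells and 11 in Fibroblast 2, 5 were highest in Endothelial cells, 4 in Pericyte cells and 1, Irgm1 at 39.2 CPM, in Fibroblast cells. These counts compare pooled cells, of which only 84 were Myeloid. With 1 sample left out, the members highest in Myeloid and in Fibroblast 2 were 6 and 13 without wild-type replicate 3, 14 and 8 without knockout replicate 3, and 13 and 8 without wild-type replicate 2. Ifit1 in Myeloid cells, for example, was at 22.3 CPM pooled, with a median of 7.92 CPM and a highest value of 98.6 CPM over 4 samples. Bst2 was at 319 CPM in Myeloid cells and 212 CPM in Fibroblast 2. Isg15 was at 88.0 CPM in Fibroblast 2 and 72.8 CPM in Myeloid cells, and Usp18, which removes Isg15 from proteins and dampens the receptor, was highest in Fibroblast 2 at 26.5 CPM. Ifi27 ranged from 118 CPM in RPE cells to 378 CPM in Fibroblast 2. Parp14, an ADP-ribosyltransferase, was at 27.3 CPM in Endothelial and 18.9 CPM in Pericyte cells. As a scale for free RNA in droplets, the macrophage gene Lyz2 had a UMI in 96.4% of Myeloid cells and in 9.06% of Fibroblast, 8.07% of Fibroblast proliferating, 9.97% of Fibroblast 2 and 7.98% of RPE cells. Its level was 9995 CPM in Myeloid and 3.58 CPM in Fibroblast cells.

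**Figure D2:**
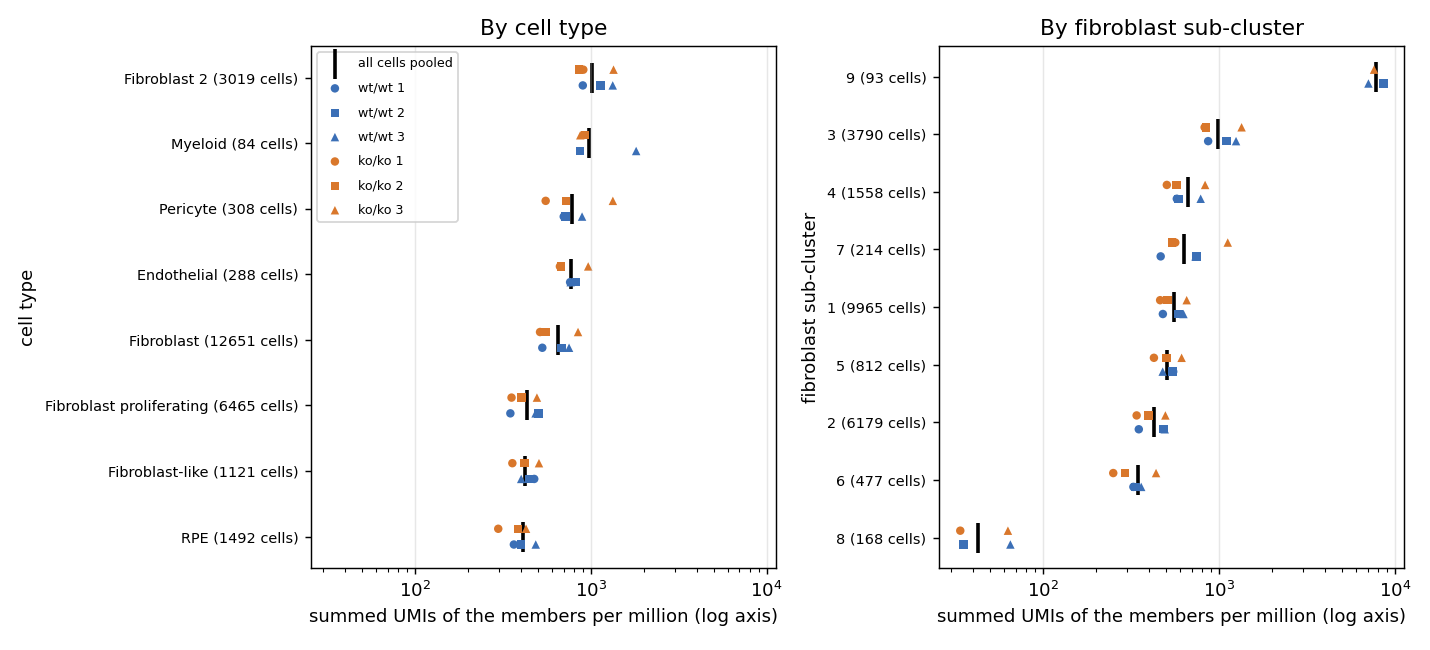
Summed level of the 32 members in each annotated cell type (left) and each fibroblast sub-cluster (right), in CPM on a log axis, with 1 point for each sample that had 10 or more cells and a black bar for all cells pooled. Sub-cluster 9 stands at 7830 CPM, to the right of every cell type, and the types run from 413 CPM in RPE cells to 1021 CPM in Fibroblast 2 with much overlap between their samples.

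The authors had also divided the fibroblasts into 9 sub-clusters. Sub-cluster 9, with 93 cells of which 88 were annotated Fibroblast, had a summed level of 7830 CPM, and the next, sub-cluster 3, had 990 CPM. Over the 3 samples with 10 or more of its cells the level was 7079 to 8602 CPM. Since the sub-clusters were made from the same expression values, this is a description of what sub-cluster 9 is. Of the 32 members, 31 were highest in sub-cluster 9. The exception was Ifi27, at 241 CPM there and 389 CPM in sub-cluster 3.

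Within sub-cluster 9, Isg15 reached 1819 CPM, Bst2 1162 CPM, Ifit1 886 CPM, Ifit3 819 CPM, Cxcl10 311 CPM, Usp18 256 CPM, Gbp2 195 CPM and Irf7 175 CPM. The ratio to the other fibroblast cells was 368 for Ifit3b, 253 for Iigp1, 210 for Ifit3, 121 for Ifit1 and 69.3 for Isg15. It was 12.4 for Bst2, 3.47 for Irgm1, 3.38 for Irf9 and 0.973 for Ifi27. Sub-cluster 9 had 5, 19 and 32 cells in the wild-type samples and 5, 7 and 25 cells in the knockout samples. This was 0.131%, 0.413% and 0.741% of the cells against 0.234%, 0.105% and 0.642%, with means of 0.428 ± 0.305% and 0.327 ± 0.280% (SD, n = 3 each).

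A coordinated response was then counted cell by cell, without the annotation. A set of 16 members, most of them with little basal level and called calling genes here, served to find the cells. They were Ifit1, Ifit2, Ifit3 with Ifit3b as 1 gene, Isg15, Irf7, Oasl2, Oas1a, Mx1, Rsad2, Ifi44, Usp18, Rtp4, Zbp1, Cxcl10 and Ddx60. Each cell was thinned to 8000 UMIs so that depth did not set the count, which left out 3401 shallower cells (1822 of wild-type and 1579 of knockout) and kept 22027. A cell with UMIs of 5 or more of the 15 calling genes was called responding. No calling gene was seen in 16030 cells (72.8%) and 1 was seen in 4236 cells. There was no gap in the distribution at the minimum, with 174 cells at 4 genes and 93 at 5. The responding cells numbered 289 (1.31%), of which 77 had 8 or more calling genes and 1 had 13.

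**Figure D3:**
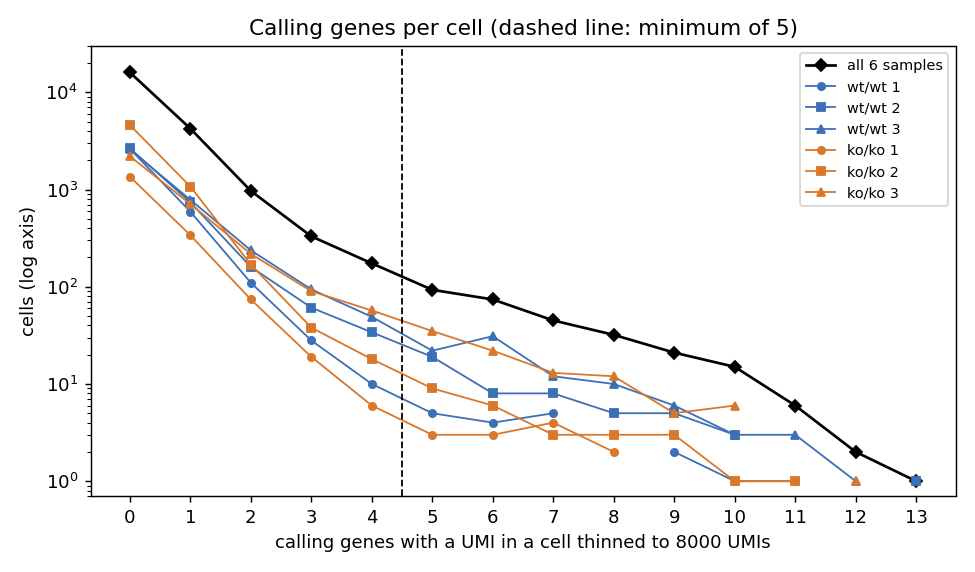
Number of calling genes with a UMI in each cell after thinning to 8000 UMIs, with the number of cells on a log axis, for all 6 samples (black) and for each sample. The counts fall steadily from 16030 cells without a calling gene to 1 cell with 13, and the dashed line marks the minimum of 5 for a responding cell.

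The share of responding cells differed more between samples than between genotypes. In the wild-type samples it was 0.532% (18 of 3381 cells, 95% Wilson interval 0.337 to 0.840%), 1.32% (49 of 3703, 1.00 to 1.74%) and 2.29% (88 of 3839, 1.86 to 2.82%). In the knockout samples it was 0.774% (14 of 1809, 0.462 to 1.29%), 0.439% (26 of 5928, 0.299 to 0.642%) and 2.79% (94 of 3367, 2.29 to 3.40%). These intervals cover counting error only. The intervals of replicate 3 of either genotype lay above those of all other samples. The means were 1.38 ± 0.881% in wild-type and 1.33 ± 1.27% in knockout (SD, n = 3 each), a difference of -0.05 percentage points, and of -0.776 within batch 1. Without thinning, over all cells, the shares were 2.20%, 3.76% and 7.03% against 4.95%, 0.903% and 8.16%. Without sub-cluster 9, an alternative chosen after seeing the data, they were 0.385%, 0.868% and 1.55% against 0.499%, 0.355% and 2.09%.

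**Figure D4:**
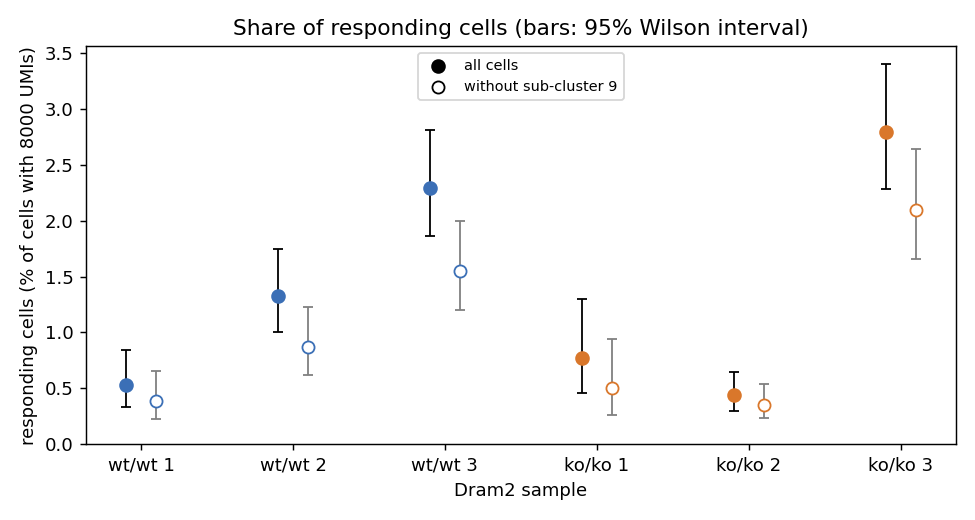
Share of responding cells among cells with at least 8000 UMIs in each sample, in percent, with 95% Wilson intervals as bars, for all cells (filled) and without sub-cluster 9 (open). The highest shares are 2.29% in wild-type replicate 3 and 2.79% in knockout replicate 3, and the genotypes overlap.

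Cells not called responding put the samples in nearly the same order, with wild-type replicate 1 and knockout replicate 2 exchanged. They include the 3401 cells too shallow to be called and the 504 cells with 3 or 4 calling genes, so some of them may have responded. Their calling genes summed to 41.3, 60.9 and 81.0 CPM in the wild-type samples and 45.6, 44.6 and 90.3 CPM in the knockout samples. Responding cells held 28.0%, 49.0% and 46.0% of all calling gene UMIs in the wild-type samples and 36.7%, 31.4% and 47.7% in the knockout samples. The 289 responding cells were 1.31% of those deep enough. They were chosen by UMIs of these same genes, so their share of the UMIs follows in part from that choice and is a description.

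Of the 289 responding cells, 85 (29.4%) were in sub-cluster 9 and 204 were outside it. Of the 90 sub-cluster 9 cells that were deep enough, 85 were responding (94.4%, 95% Wilson interval 87.7 to 97.6%). In sub-cluster 3 the share was 2.74% (91 of 3324), in sub-cluster 2 0.549% (32 of 5829) and in sub-cluster 1 0.543% (50 of 9208). By annotated type it was 3.03% of Fibroblast 2 (78 of 2575, 2.43 to 3.76%), 1.35% of Fibroblast (158 of 11663), 0.963% of RPE (11 of 1142) and 0.569% of Fibroblast proliferating cells (34 of 5971). It was 1.75% of Endothelial (3 of 171, 0.598 to 5.03%), 1.69% of Myeloid (1 of 59, 0.300 to 8.996%), 1.18% of Pericyte (3 of 255, 0.401 to 3.40%) and 0.524% of Fibroblast-like cells (1 of 191, 0.0925 to 2.91%). Their intervals are wide, and only 191 of 1121 Fibroblast-like cells were deep enough to count. Of the 1142 RPE cells, 513 were of knockout replicate 3 and 332 of wild-type replicate 2, with 6 and 4 of the 11 responding. The pooled RPE share thus rests mainly on these samples, unlike that of the fibroblast types. All intervals by type and for sub-cluster 9 pool the cells of the samples. They cover counting error only, not the spread between samples. The share in Fibroblast 2 was above that in Fibroblast in 6 of 6 samples, and the share in Fibroblast was above that in Fibroblast proliferating in 5 of 6. In Fibroblast 2 it was 2.06%, 2.49% and 6.03% in the wild-type samples and 2.60%, 0.725% and 8.22% in the knockout samples.

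Calling genes were seen together in the same cells. Isg15 had a UMI in 61.9% of the 661 thinned cells with Ifit1, against 7.15% of the other cells, and in 76.0% of the 96 cells with Rsad2, an enzyme that makes a chain-terminating nucleotide. In the other direction, Ifit1 was seen in 21.1% of the 1937 cells with Isg15 and in 1.25% of the others. In responding cells, Isg15 was seen in 97.2%, Ifit1 in 79.6% and Usp18 in 78.5%, against 7.62%, 1.98% and 3.50% of the other cells. Mx1 was seen in 1.04% of responding cells. These shares follow from how the cells were chosen and are a description.

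Some members came from very few cells. The 10 cells with the most Cxcl10 held 50% of its UMIs, and 611 of 3607 (16.9%) were in 1 cell. For Rsad2, 9 cells held 50% of the UMIs. For Ifit3b it was 32 cells, for Ifit3 54, for Ifit1 60 and for Isg15 210, whereas it took 4463 cells for Ifi27. Responding cells held 81.4% of the Rsad2, 80.9% of the Ifit3b, 70.9% of the Cxcl10 and 67.3% of the Ifit1 UMIs, but 4.19% of the Ifit2 UMIs although Ifit2 is a calling gene. All of these are calling genes, so high shares follow in part from how the cells were chosen.

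The cell with the most Cxcl10 was a Fibroblast proliferating cell of wild-type replicate 2, with 49072 UMIs in all and 1633 of the members. It held 611 Cxcl10, 221 Isg15, 219 Ifit1 and 194 Rsad2 UMIs and was the cell with 13 calling genes. Without this 1 cell, chosen after seeing the data, Cxcl10 in that sample went from 12.2 to 6.75 CPM. The wild-type mean became 3.81 ± 2.88 CPM, below the knockout mean of 5.15 ± 1.74 CPM. Rsad2 in that sample went from 2.41 to 0.684 CPM.

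The other 16 members, the readout members, took no part in finding the cells. UMIs of responding cells and of the other cells of the same sample were summed and compared over the 6 samples, with the sample as a factor and the calling genes left out. All 16 were higher in responding cells by edgeR's quasi-likelihood test with Benjamini-Hochberg adjustment, each in 6 of 6 samples. Of the 21222 genes tested, 2.01% (427) were higher and 4.07% (863) were lower in responding cells. The higher genes may include rare ones that passed the filter on low counts only through the responding cells, and these were not counted apart. Which direction had more genes depended on the setting. There were 495 higher and 350 lower with DESeq2, and 545 and 465 with scaling by library size alone. Without the sample as a factor there were 274 and 158, and within Fibroblast cells alone 230 and 66. Only samples with 10 or more responding cells entered a fit. The fit within Fibroblast cells therefore left out replicate 1 of both genotypes, with 8 such cells in wild-type and 4 in knockout.

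Bst2 was at 673 to 1438 CPM in responding cells and 84.6 to 97.3 CPM in the other cells, a log2 fold change of 3.29 (SE 0.12, edgeR adjusted p = 1.56e-16). Iigp1, a GTPase that attacks parasite vacuoles, rose from 0.0652 to 0.366 CPM in the other cells to 11.9 to 67.3 CPM, a log2 fold change of 7.35 (SE 0.38, edgeR adjusted p = 1.60e-13). The ranges did not overlap for either gene. For edgeR, the SE given is the absolute log2 fold change divided by the square root of the test's F statistic. It is not a fitted standard error as in limma. The other GTPases were also higher, Gbp3 with a log2 fold change of 4.55 (SE 0.16, edgeR adjusted p = 1.81e-16), Igtp with 3.64 (SE 0.14), Gbp2 with 3.61 (SE 0.17) and Irgm1 with 1.60 (SE 0.11).

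The sensors rose as well. The log2 fold change was 3.79 for Ifih1 (SE 0.18, edgeR adjusted p = 2.56e-14), 3.54 for Dhx58 (SE 0.28), which regulates the other RNA sensors, 1.72 for Ddx58 (SE 0.10) and 1.57 for Trim25 (SE 0.11). Of the transcription factors, Stat2 had a log2 fold change of 2.69 (SE 0.14, edgeR adjusted p = 2.68e-13) and Irf9 of 1.81 (SE 0.13). Xaf1 at 3.78 (SE 0.18), Parp14 at 3.32 (SE 0.21) and Ifi35 at 1.85 (SE 0.09) rose too. The largest adjusted p among these genes other than Ifi27 was that of Dhx58, at 8.39e-10 with edgeR.

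Ifi27 stood apart. It was at 250.2 to 444 CPM in responding cells and 209 to 256 CPM in the other cells, so that the ranges overlapped, with a log2 fold change of 0.34 (SE 0.08, edgeR adjusted p = 0.0135). The edgeR call was lost with 8 or more calling genes (0.20, adjusted p = 0.695), within Fibroblast cells alone (0.09, adjusted p = 0.882), with cells thinned to 4000 UMIs (0.26, adjusted p = 0.154) and without knockout replicate 3 (0.26, adjusted p = 0.1). The other 15 readout members were called in each of these. Samples with under 10 responding cells did not enter a fit. With 8 or more calling genes only wild-type replicates 2 and 3 and knockout replicate 3 entered. Within Fibroblast cells only replicates 2 and 3 of each genotype did. The part of the smaller number of samples in these lost calls was not tested.

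**Figure D5:**
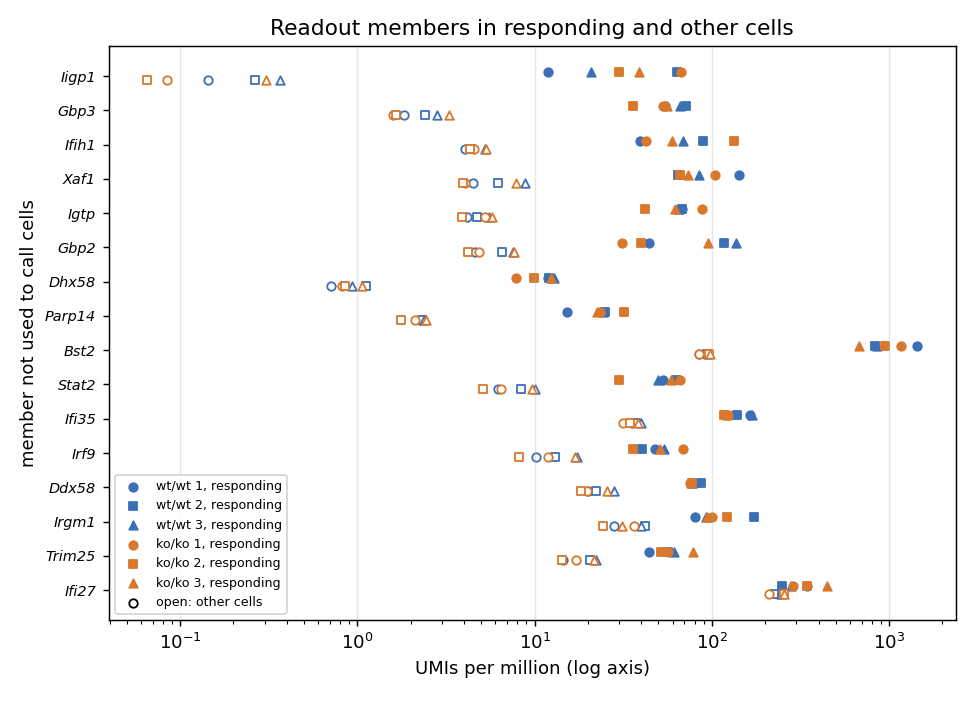
Level of the 16 readout members in responding cells (filled) and in the other cells (open) of each sample, in CPM on a log axis, ordered by log2 fold change. Filled points lie to the right of all open points for each member except Ifi27, whose responding samples start at 250.2 CPM and whose other cells reach 256 CPM.

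Genes of the pathway that are not members were taken from lists. Of 21 interferon ligand genes, 16 had no UMI in the 25428 cells, which allows a share of cells with a UMI of up to 0.0118% for each. The other 5 had 54 UMIs together, 50 of them from Ifnz and 1 each from Ifnb1, Ifna13, Ifna16 and Ifnab. Ifng, the gene of interferon gamma, had none. Ligand transcripts were thus not detectable at this depth beyond these UMIs.

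The receptors were present in both genotypes. Ifnar1 was at 20.5 ± 1.55 CPM in wild-type and 19.8 ± 2.24 CPM in knockout, Ifnar2 at 75.5 ± 1.63 CPM and 79.3 ± 0.809 CPM, Ifngr1 at 56.9 ± 3.39 CPM and 58.7 ± 2.69 CPM, and Ifngr2 at 85.4 ± 8.15 CPM and 94.2 ± 11.7 CPM (SD, n = 3 each). None of the 9 receptors and kinases was called between responding and other cells by edgeR, with log2 fold changes of -0.20 for Ifnar1 (adjusted p = 0.563), 0.05 for Ifnar2 (adjusted p = 0.864), -0.04 for Ifngr1 (adjusted p = 0.924) and -0.05 for Ifngr2 (adjusted p = 0.851).

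Downstream of the receptors, Irf1 and Irf5, transcription factors of the response that are not members, were higher in responding cells, with edgeR log2 fold changes of 1.04 and 0.93. Irf2, Irf3, Irf8 and Stat3 did not pass. Of 8 upstream sensing genes tested, 1 was higher, Tlr3 at 1.91, a receptor for double-stranded RNA. Of 7 negative regulators, 3 were higher, Trex1 at 1.60, Adar at 1.26 and Socs1 at 1.10.

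Of 41 other induced genes tested, 39 were higher in responding cells. The largest log2 fold changes were those of Oasl1 (6.96), Oas3 (6.36), Mx2 (5.85), Gbp5 (5.82) and the chemokine Ccl5 (5.74), and Ifitm1 and Ifitm2 did not pass. Gbp5 and Ccl5 were higher in 5 of 6 samples. Gbp5 had no UMI in the responding cells of knockout replicate 2, and Ccl5 had none in those of knockout replicate 3, against 69.0 to 243 CPM in those of the other samples. Of 15 antigen presentation genes, 13 were higher, led by the immunoproteasome subunits Psmb9 (2.57) and Psmb8 (2.31), the class I genes H2-Q4 (1.90) and H2-T23 (1.59) and the peptide transporter Tap1 (1.28), with H2-T23 higher in 5 of 6 samples and the others named in 6 of 6. The class II genes H2-Ab1 and H2-Eb1 did not pass. No gene of these lists was lower. Between genotypes, limma, edgeR and DESeq2 each called 0 of the 84 pathway genes tested over the whole sample, with 1 at an unadjusted p under 0.05 in limma, and called none in any cell type.

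Among genes in no list, the 10 with the largest log2 fold changes in responding cells were F830016B08Rik (7.11), Gm4951 (6.86), Pcp4 (6.16), Igsf5 (5.90), Pax5 (5.11), Trim30d (4.80), Ifi203-ps (4.74), Gm43302 (4.20), Mir3474 (4.18) and Hoxa11os (4.17). Only Trim30d, with 107 UMIs, and Gm4951, with 54, had more than 19 UMIs in the responding cells, and these 2 were higher in 6 of 6 samples and the other 8 in 2 to 5. Gm43302, Mir3474 and Hoxa11os had 3 UMIs each there, and fitted fold changes of such low counts depend on the prior count. In every sample the responding cells also summed to far fewer UMIs than the other cells. The same few UMIs thus gave a much higher CPM in responding cells. A rare gene could therefore pass the filter on low counts through the responding cells alone, and its direction may come from the filter.

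Other features differed between the responding and the other cells and are given beside these results. The type Fibroblast 2 made up 27.0% of responding and 11.5% of other cells, and Fibroblast proliferating 11.8% and 27.3%. The 5 markers of proliferating cells summed to 164 CPM in responding and 405 CPM in the other cells. The median UMIs per cell over samples were 18240 to 43278 in responding and 17348 to 53405 in other cells. Markers of myeloid cells summed to 64.6 CPM in responding and 66.3 CPM in other cells. Those of plasmacytoid dendritic cells and lymphocytes, leaving out the member Bst2, were at 0.968 and 0.442 CPM with 8 of 10 at 0 in responding cells. The part of cell type and proliferation in the readout was not tested beyond the fit within Fibroblast cells alone. In it 15 of 16 readout members were called, over replicates 2 and 3 of each genotype only.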

How the data were processed

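Single-cell libraries of 6 samples (10x Genomics 3′ v2 chemistry) were analysed. The authors deposited UMI counts for each gene in each cell, not normalised, with a table of each cell's sample, cell type and fibroblast sub-cluster. Per the labels the counts came from Cell Ranger 3.1.0 and GRCm38, and per the study's methods they cover exons only. The gene annotation and any filter on cells were not given in the sources used here. Of 52636 gene identifiers, 52403 had a symbol in the annotation used here. All deposited cells entered. Barcodes were replaced by running names in the deposited tables, so barcodes shared between libraries could not be counted. No doublet caller was run, and an alternative left out the 5% of cells with the highest UMIs.

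Counts were summed per sample, and per cell type with 10 or more cells in a sample and 2 or more samples per genotype. They were filtered with filterByExpr, scaled by TMM (edgeR 4.0.16) and tested by voom-limma with no covariates (R 4.3.3, limma 3.58.1), with Benjamini-Hochberg adjustment over all genes and a threshold of 0.05. Responding cells were found in counts thinned to 8000 UMIs per cell, with a fixed seed. Their full counts were then summed in samples with 10 or more of them. The planned voom-limma fit for this comparison gave 2089 false calls among 20454 genes in simulated data and edgeR's quasi-likelihood test gave 10, so edgeR was reported with the sample as a factor. In that simulation edgeR recovered 89.8% of genes raised by 2 and 36.0% of genes raised by 1 on the log2 scale. The simulated counts had the same dispersion for all genes and no sample effect beyond depth. The error rate of edgeR on the real counts was not tested. In the simulated comparison of genotypes over the whole sample voom-limma recovered 76.0% of 50 genes raised by 1 and 64.6% of 48 lowered by 1. Here too every gene had the same dispersion. These shares are therefore not the power for members whose genotype log2 fold change had a wide error, such as Isg15 (SE 0.54) and Ifit1 (SE 0.61). Alternatives were DESeq2 1.42.0, edgeR, other scalings, no filter, a cell filter, the batch or replicate number in the fit, other minimums for responding cells and leaving out samples.

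The members, lists, markers and rules were chosen with earlier results of these data known. All members are given by role. Values in every sample are given for the 6 most abundant, for any called between genotypes, for any not overlapping between genotypes over the whole sample, and for the 3 highest and 3 lowest fold changes. Of pathway lists, up to 5 called genes per direction are named, and of other genes 10. Members whose last 400 transcript bases share over 5% of their 31-base words with another gene were Ifit3, Ifit3b, Oas1a, Mx1, Isg15, Gbp2, Gbp3, Irgm1, Cxcl10 and Parp14, so their counts are less certain. Some pathway and marker genes are not reported here.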

Additional observations from a re-analysis of the deposited data

How the results depend on the processing

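Between genotypes, no member was called over the whole sample or in any type other than Myeloid under the alternatives run. In Myeloid cells 2 members were called without the filter on low counts (Isg15 and Ifit3), and 0 to 1 with each sample left out in turn. The replicate numbers did not pair the samples, since the deviations of same-numbered samples correlated at 0.0987, -0.429 and 0.028. With the replicate number as a block 1 member was called in Myeloid cells (Isg15, log2 fold change -3.88, limma adjusted p = 0.000399), no member elsewhere, and Ifi27 lost its call in responding cells when the sample was not a factor (0.40, edgeR adjusted p = 0.134). Over all genes of the whole sample DESeq2 called 378 and limma 0.

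Fold changes of several members changed sign between settings without being called. Some of these were near 0, such as Bst2, and others were at the ends of the order, such as Cxcl10, Ifit1 and Rtp4. Bst2 was at 0.00866 with DESeq2, 0.00741 with other size factors, 0.00062 with the cell filter, 0.00106 with edgeR and 0.00151 with the block. With the batch as a covariate Ifi27 was at -0.00771 and Ifit1 at -0.29. Cxcl10 was at -0.0751 with DESeq2 and -0.0887 with edgeR. With each sample left out, the log2 fold change ran from -0.0698 to 0.0671 for Bst2, -0.39 to 1.36 for Cxcl10, -0.28 to 0.00915 for Ddx58, -0.0335 to 0.13 for Ifi27, -0.44 to 0.61 for Ifit1, -0.76 to 0.21 for Isg15, -0.00846 to 0.38 for Oas1a and -0.80 to 0.0425 for Rtp4. It kept its sign for Xaf1 (-0.67 to -0.06), Zbp1 (-0.50 to -0.16), Ifi35 (-0.19 to -0.04) and Irgm1 (-0.43 to -0.11). The cause was not tested.

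Summed levels by type moved when Ifi27 was left out, to 732 CPM in Myeloid, 644 in Fibroblast 2, 514 in Pericyte, 475 in Endothelial, 389 in Fibroblast, 294 in RPE, 264 in Fibroblast proliferating and 163 in Fibroblast-like cells, and in Fibroblast-like cells to 484 CPM with the cell filter. With each sample left out, chosen after seeing the data, the Myeloid level ran from 789 to 1090 CPM and that of Fibroblast 2 from 972 to 1068 CPM. The difference in the share of responding cells stayed within the spread of samples in 15 alternatives, from -0.776 to 0.407 percentage points with each sample left out. In responding cells 427 genes were higher and 863 lower, against 1279 and 1910 with 3 or more calling genes, 255 and 319 with 8 or more, 230 and 66 within Fibroblast cells, 495 and 350 with DESeq2, 545 and 465 with library size alone, 274 and 158 without the sample as a factor, 337 and 567 at 4000 UMIs, 388 and 558 without sub-cluster 9, and 3229 and 606 with voom-limma. The readout members called were 15 or 16 in each. These settings differ in samples too, since those with under 10 responding cells did not enter. With 8 or more calling genes only wild-type replicates 2 and 3 and knockout replicate 3 entered. Within Fibroblast cells only replicates 2 and 3 of each genotype did. Without sub-cluster 9, knockout replicate 1 was left out, with 9 responding cells. With 289 responding cells and 3 samples per genotype, small genotype effects and rare members such as Mx1 are beyond what the depth can show.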
